A study of Mus musculus with 16 samples.

Results

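The genes described here encode the ATP-dependent chromatin remodelers and the histone demethylases, methyltransferases and deacetylases of the mouse, followed as RNAs in Sox2 immunoprecipitates. They were taken by symbol from the count table: protein-coding genes whose name begins with Chd, Kdm, Kmt2, Kmt5, Setd, Hdac, Smarc or Ino80, or with Arid followed by a digit. The rule found 86 of the 53379 genes, and all 86 had enough UMIs (unique molecular identifiers, each counting 1 captured cDNA fragment) to be tested. There were 13 Smarc, 10 Arid, 10 Chd, 5 Ino80, 11 Hdac and 18 Kdm genes, 18 genes named Kmt2, Kmt5 or Setd, and Chdh. Chdh encodes choline dehydrogenase, a mitochondrial enzyme that only shares its first letters with the Chd helicases, so it is given apart. Another 5 entries whose names begin the same way were pseudogenes or noncoding RNAs (Ino80dos, Kdm4dl, Kdm6bos, Smarca5-ps and Smarce1-ps1) and were not taken.

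Remodelers use ATP to slide, eject or exchange nucleosomes. The BAF (SWI/SNF) complexes are built from Smarc and Arid subunits, the ISWI, CHD and INO80 families have ATPases of their own, and in embryonic stem cells the BAF and NuRD complexes help keep the pluripotent state. Histone modifiers write or remove methyl and acetyl groups on histone tails: Kmt2 and Setd1 enzymes methylate lysine 4 of histone H3, Kdm5 enzymes remove that mark, Kdm6 enzymes remove methylation of lysine 27, and Hdac enzymes remove acetyl groups.

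Male mouse embryonic stem cells (mESC) were grown on gelatin with serum, LIF, PD0325901 and CHIR99021, the 2 compounds being inhibitors of MEK and GSK3, and were crosslinked either with formaldehyde (fRIP) or with ultraviolet light (UV-RIP). Formaldehyde joins protein to protein as well as protein to nucleic acid, and ultraviolet light joins mostly proteins and nucleic acids in direct contact. For each crosslinker there were 4 libraries of RNA recovered with a Sox2 antibody (IP) and 4 of RNA from the same lysates before the IP (input), numbered 3 to 6, so that 16 libraries fell into 4 groups of 4. The comparison asked which RNAs were more or less frequent in the IP than in the input of the same crosslinker. No IP with a nonspecific antibody was analysed here, so an IP level above input was not set against background binding to beads or antibody. In bulk lysates, fewer cells holding an RNA and less of it per cell cannot be told apart.

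The libraries held 17728081 to 21211537 UMIs in fRIP IP, 13627606 to 15381686 in fRIP input, 14218784 to 17281596 in UV-RIP IP and 12456298 to 13828610 in UV-RIP input. Summed levels of 12 mESC markers lay between 2430.5 and 5244 CPM (UMIs of a gene per 1000000 UMIs of the library), and those of 7 fibroblast markers between 1.56 and 3.30, with Sox2 itself listed at 0 in every library. That 0 does not show absence of Sox2 RNA, since the handling of reads shared by overlapping genes is not given. A single noncoding gene, Gm26917, held 18.4 to 22.3% of the UMIs in UV-RIP IP and at most 12.3% in UV-RIP input. With total UMIs as the library size the median log2 fold change over all 22936 genes tested was -0.17 in UV-RIP and -0.027 in fRIP. TMM scaling moved the UV-RIP median to 0.0052, so UV-RIP values below are read against that median. The fRIP replicate 4 stood apart from the other three: its input was low in many of the genes below and high in others, and its chi-square per degree of freedom against the other inputs was 41.0 to 51.9, where those differed from each other by 3.17 to 13.5. The fRIP IP of replicate 5 stood as far from the other IP libraries, at 38.3 to 60.0 against 5.27 to 6.11. The counts over all 86 genes, and values of several genes that these replicates moved, are also given without them. Counts span whole gene bodies, introns included. Of the 86 genes, 41 overlap a gene on the opposite strand and 15 another protein-coding gene, and since the strand setting of the counting is not given in the sources used here, reads of such partners could not be told apart. Whether reads shared with such partners were counted at all is not known either.

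The genes differed widely in base composition, and the sequences below show this for the RNAs at both ends of the fRIP range. Each is a stretch of 90 coding bases from the middle of the longest coding exon, taken from GENCODE vM21 transcripts (genome build GRCm38) and written 5′ to 3′ with CG dinucleotides in capitals. The stretches lie at chr17:56393867-56393956 (Kdm4b, plus strand, exon 12 of 23), chr17:5342179-5342268 (Arid1b, plus strand, exon 20 of 20), chr8:80719647-80719736 (Smarca5, minus strand, exon 11 of 24) and chr10:36998447-36998536 (Hdac2, plus strand, exon 12 of 14).
Kdm4b: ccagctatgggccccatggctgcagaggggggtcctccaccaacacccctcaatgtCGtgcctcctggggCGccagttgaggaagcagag
Arid1b: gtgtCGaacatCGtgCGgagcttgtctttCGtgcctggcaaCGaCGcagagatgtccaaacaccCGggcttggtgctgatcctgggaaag
Smarca5: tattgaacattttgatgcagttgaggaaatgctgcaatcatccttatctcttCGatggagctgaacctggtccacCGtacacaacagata
Hdac2: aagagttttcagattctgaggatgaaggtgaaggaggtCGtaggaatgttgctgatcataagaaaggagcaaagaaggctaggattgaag
G and C made up 65.6% of the Kdm4b stretch, 57.8% of that of Arid1b, and 42.2% of each of the other two. Over the longest protein-coding transcript the GC content was 58.7% for Kdm4b, 52.9% for Arid1b, 40.7% for Smarca5 and 41.9% for Hdac2. Both measures describe exon sequence, while the counts include introns. Sequence outside exons made up 93.6, 96.4, 81.0 and 83.6% of these 4 gene bodies.

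Paralogous genes that encode like proteins also differed in this way. For the pairs Kdm6a/Kdm6b and Kmt2c/Kmt2d, which had the largest differences in GC content among the pairs of paralogues compared, the 90-base coding stretches with the most identical bases are shown, with every base that differs within the pair in capitals. They lie at chrX:18271928-18272017 (Kdm6a, plus strand, exon 25), chr11:69401008-69401097 (Kdm6b, minus strand, exon 19), chr5:25284632-25284721 (Kmt2c, minus strand, exon 52) and chr15:98839842-98839931 (Kmt2d, minus strand, exon 49).
Kdm6a: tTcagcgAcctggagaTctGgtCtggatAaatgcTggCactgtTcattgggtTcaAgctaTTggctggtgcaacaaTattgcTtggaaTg
Kdm6b: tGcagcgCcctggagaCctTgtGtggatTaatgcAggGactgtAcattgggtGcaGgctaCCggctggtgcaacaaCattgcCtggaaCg
Kmt2c: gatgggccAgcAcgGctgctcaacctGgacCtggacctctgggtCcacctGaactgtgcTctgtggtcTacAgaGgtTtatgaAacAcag
Kmt2d: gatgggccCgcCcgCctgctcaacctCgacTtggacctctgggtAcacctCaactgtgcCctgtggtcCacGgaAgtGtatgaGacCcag
Of the 90 bases, 74 were the same in Kdm6a and Kdm6b, and in 10 of the differing places Kdm6b had G or C where Kdm6a had A or T, against 1 the other way. Kmt2c and Kmt2d shared 76 bases, with 8 such places in favour of Kmt2d and 3 in favour of Kmt2c.

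In fRIP, 11 of the 86 RNAs were enriched (fold above 1.5 and adjusted p below 0.05 by edgeR's quasi-likelihood test) and 2 were depleted, the mirror of this. The enriched RNAs were those of the class IIa deacetylases Hdac4, Hdac5 and Hdac7, the methyltransferases Kmt2b and Kmt2d, the demethylases Kdm4b and Kdm4d, the BAF subunit Arid1b, Arid5a, the remodeler Chd7, and Chdh. The depleted RNAs were those of the deacetylase Hdac2 and the ISWI ATPase Smarca5. Over all genes tested 8.8% were enriched and 10.7% depleted, against 12.8% and 2.33% of these genes. Of the 77 with a mean of 100 or more UMIs, 8 were enriched (10.4%) and 2 depleted (2.6%), where all 10208 genes at that level gave 11.5% and 15.4%. The enriched share therefore lay near the background, and the depleted share lay below it. At any fold, 31 RNAs were above input and 24 below at an adjusted p below 0.05, against 17.6% and 21.9% of all genes tested. At 100 or more UMIs the shares were 35.1% above and 28.6% below, against 29.2% and 38.4% of all genes. The median log2 fold change was 0.081. Without replicate 4, 7 were enriched and 2 depleted, 31 were above and 30 below input at any fold, and the median was 0.019. All genes then gave 7.8% enriched, 9.41% depleted and a median of -0.023. Without replicate 5, 10 were enriched and 3 depleted, with Kdm4d lost and Ino80b added, 30 were above and 16 below input, and the median was 0.096. There all genes gave 8.6%, 9.98% and -0.022. The calls of Arid5a, Chd7, Kdm4d and Kmt2b were lost without replicate 4, while Arid1b, Kdm4b, Hdac4, Hdac5, Hdac7, Kmt2d and Chdh remained enriched.

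In UV-RIP, 0 of the 86 RNAs were enriched and 1, Smarce1, was depleted, against 0.68% and 5.53% of all genes tested. At any fold, edgeR placed 16 above and 42 below input, against 6.6% and 29% of all genes tested, and this balance turned with the scaling, to 36 above and 20 below with TMM factors. At 100 or more UMIs 20.8% were above and 51.9% below, against 12.7% and 53.8% of all genes, so the share below was near the background. Of the RNAs described below, those of Arid2, Arid5b, Hdac2, Ino80, Ino80b, Ino80c, Kdm2a, Kdm2b, Kdm4a, Kdm5b, Setd3, Smarca1, Smarca4 and Smarca5 were below input in UV-RIP with total UMIs and did not pass the test with TMM factors. Chd2 then passed above input, and so did Arid3a, Arid5a, Chd4, Chd5, Hdac8, Hdac11, Kdm3a, Kmt2c, Setd1a and Smarcd2, which had not passed. The median log2 fold change was -0.104, and 51 of the 86 lay above the median of all genes. The count of 0 rests on the scaling: with TMM factors 4 RNAs passed the threshold, those of Hdac5, Hdac7, Kmt2b and Kmt2d, and Smarce1 no longer did, where 2.2% of all genes were then enriched. Kmt2b alone passed when replicate 4 or replicate 5 was left out, and Ino80b joined Smarce1 without replicate 3. With total UMIs as the library size no RNA reached 1.5-fold, so the count was also 0 at an unadjusted p below 0.05, and DESeq2 gave 0 with total UMIs and 4 with its own size factors. These 4 were then just short of the threshold (0.58 on the log2 scale), at 0.50 ± 0.048 (SE) for Hdac5, 0.47 ± 0.068 for Hdac7, 0.57 ± 0.039 for Kmt2b and 0.54 ± 0.038 for Kmt2d.

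**Figure D1:**
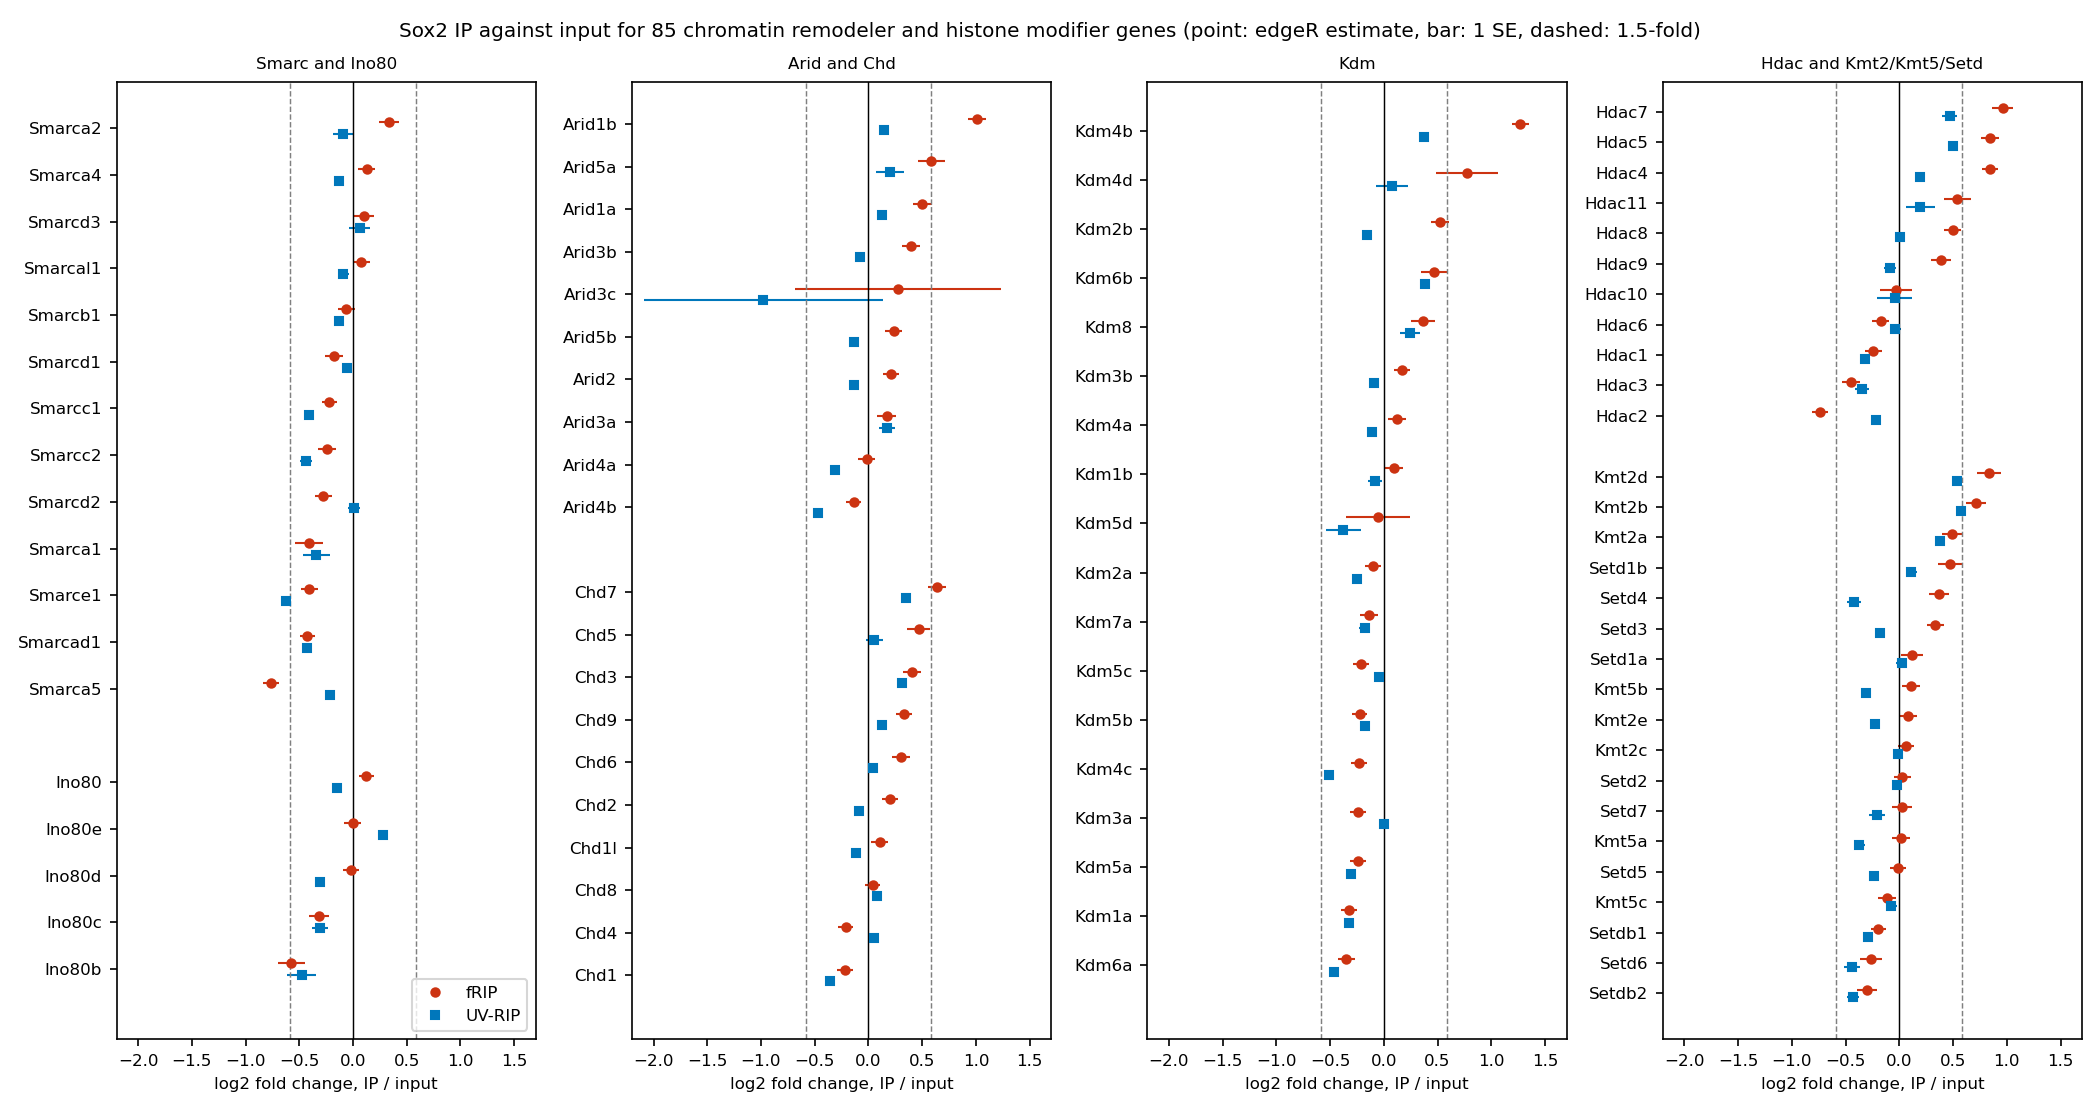
Log2 fold change of IP over input (x axis) for 85 chromatin genes, ordered within each family by the fRIP value, with fRIP as red circles, UV-RIP as blue squares, bars of 1 SE from edgeR and dashed lines at 1.5-fold. Hdac4, Hdac5, Hdac7, Kdm4b and Arid1b lie to the right of the line in fRIP, Smarca5 and Hdac2 to the left, and Smarce1 is the only blue square left of it in a gene of 100 or more UMIs.

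Among the 13 Smarc genes, which encode ATPases and core subunits of remodeling complexes, 0 were enriched in fRIP, 1 was depleted, and 1 was above and 7 below input at any fold. In the same order all genes tested gave 8.8%, 10.7%, 17.6% and 21.9%. Those of 100 or more UMIs gave 11.5%, 15.4%, 29.2% and 38.4%. Smarca5, the ATPase of ISWI complexes that space nucleosomes, lies at chr8:80698507-80739497 on the minus strand. It had 116, 128, 103 and 126 CPM in fRIP IP of replicates 3, 4, 5 and 6, and 185, 241, 185 and 193 in their inputs. Every IP was below every input, replicate 4 having the highest input, and the log2 fold change was -0.76 ± 0.078 (adjusted p = 2.91e-08), or -0.71 without replicate 4. In UV-RIP it had 106, 92.3, 104 and 104 in IP and 121, 114, 110.5 and 127 in input, a log2 fold change of -0.22 ± 0.043 (adjusted p = 2.66e-06). Again no IP reached an input, but the difference was close to the median of all genes.

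Smarce1, a DNA-binding subunit of BAF at chr11:99209047-99231017 on the minus strand, was the only RNA depleted in UV-RIP. It had 50.8, 47.9, 56.6 and 49.8 CPM in IP and 76.5, 81.2, 79.6 and 79.3 in input, and -0.63 ± 0.048 on the log2 scale (adjusted p = 1.25e-37). In fRIP the values were 57.2, 56.9, 45.7 and 52.9 in IP and 72.9, 71.4, 66.9 and 70.2 in input, and the log2 fold change was -0.41 ± 0.080 (adjusted p = 0.000177). With both crosslinkers the groups were fully apart. Without replicate 4 the UV-RIP value was -0.58, at the threshold, and the call was lost.

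Smarcc1 and Smarcc2, scaffold subunits that can replace each other, were below input in UV-RIP at -0.41 ± 0.038 (adjusted p = 8.32e-26) and -0.44 ± 0.056 (adjusted p = 7.57e-14). The log2 fold changes of the alternative BAF ATPases in fRIP were 0.33 ± 0.096 for Smarca2 (adjusted p = 0.00651), which was above input, and 0.13 ± 0.081 for Smarca4 (adjusted p = 0.244), which did not pass the test and was 0.021 without replicate 4. Smarca2 was a low RNA, with 18.3, 20.9, 20.1 and 19.3 CPM in fRIP IP and 16.1, 14.4, 16.1 and 15.7 in input. Smarcad1, an ATPase linked to heterochromatin upkeep, was lower than input with both crosslinkers, -0.42 ± 0.074 in fRIP (adjusted p = 4.56e-05) and -0.42 ± 0.038 in UV-RIP (adjusted p = 5.52e-27), or -0.38 and -0.24 with TMM factors.

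Of the 10 Arid genes, 2 were enriched in fRIP, 0 were depleted, and 6 were above and 0 below input at any fold. At 100 or more UMIs all genes gave 11.5%, 15.4%, 29.2% and 38.4%. Without replicate 4, 6 were above and 1 below, and with the gene length trend removed 4 and 2. Arid1b and Arid1a encode the large DNA-binding subunits of BAF, of which each complex holds 1. Arid1b (chromosome 17, plus strand, gene body of 353325 bases) had 719.5, 666, 603 and 719 CPM in fRIP IP against 364, 266, 338 and 385 in input, 2.01-fold more. All IP values lay above all inputs, the lowest input being that of replicate 4, and the log2 fold change was 1.01 ± 0.081 (adjusted p = 1.04e-09), or 0.91 without that replicate. UV-RIP gave 435, 456, 507 and 489 in IP and 413, 420.3, 435 and 442 in input, groups that overlapped, and 0.14 ± 0.038 on the log2 scale (adjusted p = 0.000754).

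Arid1a was higher in fRIP IP than in input without reaching 1.5-fold, at 0.50 ± 0.088 (adjusted p = 5.38e-05). Its inputs were 581, 408, 575 and 563 CPM against 733, 785, 737 and 725 in IP, so that replicate 4, with a log2 ratio of 0.94, differed from ratios of 0.33 to 0.37 in the other replicates. Arid5a, whose protein binds RNA, was a low RNA with 8.46, 8.02, 7.68 and 8.52 CPM in fRIP IP and 6.24, 4.78, 5.86 and 4.92 in input. Its log2 fold change of 0.59 ± 0.12 (adjusted p = 0.000412) was just past 1.5-fold, and 0.53 without replicate 4. Arid4a and Arid4b, partners of the Sin3 deacetylase complex, were the lowest of the family in fRIP among genes of 100 or more UMIs and were below input in UV-RIP, at -0.31 ± 0.043 (adjusted p = 4.99e-12) and -0.47 ± 0.041 (adjusted p = 2.33e-28).

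Among the 10 Chd genes, which encode helicases with chromodomains, 1 was enriched and 0 were depleted in fRIP, with 6 above and 2 below input at any fold. The shares of all genes of 100 or more UMIs were 11.5%, 15.4%, 29.2% and 38.4%. Chd7, at chr4:8690406-8867659 on the plus strand, is known for its mutation in CHARGE syndrome. It had 272, 278, 258 and 261 CPM in fRIP IP and 192, 136, 177 and 187 in input. The IP values were above all inputs, and the log2 fold change was 0.64 ± 0.087 (adjusted p = 1.8e-06), or 0.51 without replicate 4, under 1.5-fold. It was also the highest of the family in UV-RIP, with 266, 233, 257 and 276 in IP, 207, 208, 197 and 197 in input and 0.35 ± 0.040 on the log2 scale (adjusted p = 2.17e-17). Chd4 and Chd3 encode alternative ATPases of the NuRD complex, and their RNAs parted in fRIP: Chd3 was above input at 0.41 ± 0.087 (adjusted p = 0.000476) and Chd4 below it at -0.21 ± 0.071 (adjusted p = 0.0195). Chd5, a relative of both, was above input in fRIP at 0.47 ± 0.11 (adjusted p = 0.00109). Chd1, which opens chromatin at transcribed genes, was lower than input with both crosslinkers, at -0.22 ± 0.074 (adjusted p = 0.0181) and -0.36 ± 0.037 (adjusted p = 3.19e-20). The fRIP difference of Chd1 did not pass without replicate 5, at -0.17 (adjusted p = 0.105). The count table gives Chd1 a body of 1689932 bases, far longer than in GENCODE vM21, and which part of that span gave its UMIs was not tested.

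Of the 5 Ino80 genes 0 were enriched or depleted in fRIP, against 8.8% and 10.7% of all genes tested. Ino80, the ATPase of the complex, had a log2 fold change of 0.13 ± 0.072 in fRIP (adjusted p = 0.189) and of -0.15 ± 0.039 in UV-RIP (adjusted p = 0.000505), close to the UV-RIP median of all genes. The subunit Ino80d was at -0.021 ± 0.075 in fRIP (adjusted p = 0.87) and below input in UV-RIP at -0.31 ± 0.040 (adjusted p = 1.52e-13), and Ino80c was lower with both, at -0.31 ± 0.091 (adjusted p = 0.00715) and -0.31 ± 0.076 (adjusted p = 0.00022). The subunit Ino80e was the exception, at -0.0038 ± 0.082 in fRIP (adjusted p = 0.981) and above input in UV-RIP at 0.28 ± 0.047 (adjusted p = 2.35e-08). Its UV-RIP levels were 76.1, 74.7, 64.2 and 75.9 CPM in IP and 61.9, 64.8, 55 and 57.9 in input. Within each replicate the IP was higher, although the lowest IP value lay below the highest input. Ino80e overlaps Doc2a and Hirip3.

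The 11 Hdac genes held 3 enriched RNAs and 1 depleted RNA in fRIP, with 6 above and 3 below input at any fold. Among all genes of 100 or more UMIs the shares were 11.5%, 15.4%, 29.2% and 38.4%. The Hdac genes are grouped here by enzyme class, a grouping made after the values were seen. Of class IIa, whose enzymes shuttle between nucleus and cytoplasm and work with the Hdac3 complex, Hdac4, Hdac5 and Hdac7 lay at the high end, while the fourth member, Hdac9, lay in the middle of the family, below Hdac11 and Hdac8. The class I enzymes Hdac1, Hdac2 and Hdac3, the catalytic subunits of NuRD, Sin3 and NCoR complexes, lay at the low end.

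Hdac7, at chr15:97792664-97844502 on the minus strand, had 36.4, 36.7, 37.7 and 43 CPM in fRIP IP and 20.3, 14.3, 21.6 and 23.6 in input. The log2 fold change was 0.96 ± 0.098 (adjusted p = 2.88e-08) with no overlap of the groups, and 0.84 without replicate 4, whose input was the lowest. UV-RIP gave 24.1, 23.4, 26 and 25.2 in IP and 19.2, 16.7, 17.3 and 18.2 in input, again apart, and 0.47 ± 0.068 on the log2 scale (adjusted p = 4.16e-11). Hdac7 overlaps Slc48a1.

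Hdac5, at chr11:102194432-102230166 on the minus strand, had 88.4, 95.6, 100.1 and 106 CPM in fRIP IP and 52, 42.4, 61.8 and 63.3 in input, a log2 fold change of 0.84 ± 0.087 (adjusted p = 3.18e-08), or 0.74 without replicate 4. Hdac4, at chr1:91928779-92195699 on the minus strand, had 545, 529, 463 and 509.7 and 312, 248, 283 and 300.5, a log2 fold change of 0.84 ± 0.078 (adjusted p = 6.83e-09), or 0.76 without that replicate. In both the IP values lay above every input with either crosslinker. Hdac4 reached only 0.20 ± 0.038 in UV-RIP (adjusted p = 1.8e-06), and Hdac9, at 0.39 ± 0.092 in fRIP (adjusted p = 0.00138), was at -0.084 ± 0.055 there (adjusted p = 0.267).

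Hdac2, at chr10:36974544-37001889 on the plus strand, had 66, 73.5, 59.3 and 66.3 CPM in fRIP IP and 102, 128, 104 and 109 in input, and was 0.6 times the input level. The groups were fully apart, and the log2 fold change of -0.74 ± 0.078 (adjusted p = 4.59e-08) was little moved without replicate 4, at -0.72. In UV-RIP it was -0.22 ± 0.048 (adjusted p = 2.29e-05), again close to the median of all genes. Hdac3 was below input with both crosslinkers, at -0.45 ± 0.086 (adjusted p = 0.000143) and -0.35 ± 0.065 (adjusted p = 4.74e-07). So was Hdac1, at -0.24 ± 0.077 (adjusted p = 0.0141) and -0.32 ± 0.041 (adjusted p = 1.39e-13), although in fRIP it did not pass without replicate 5, at about the same value (-0.24, adjusted p = 0.0526). Hdac8, the class I enzyme that works outside these complexes, was above input in fRIP at 0.50 ± 0.082 (adjusted p = 2.39e-05) and at 0.0029 ± 0.045 in UV-RIP (adjusted p = 0.977).

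**Figure D2:**
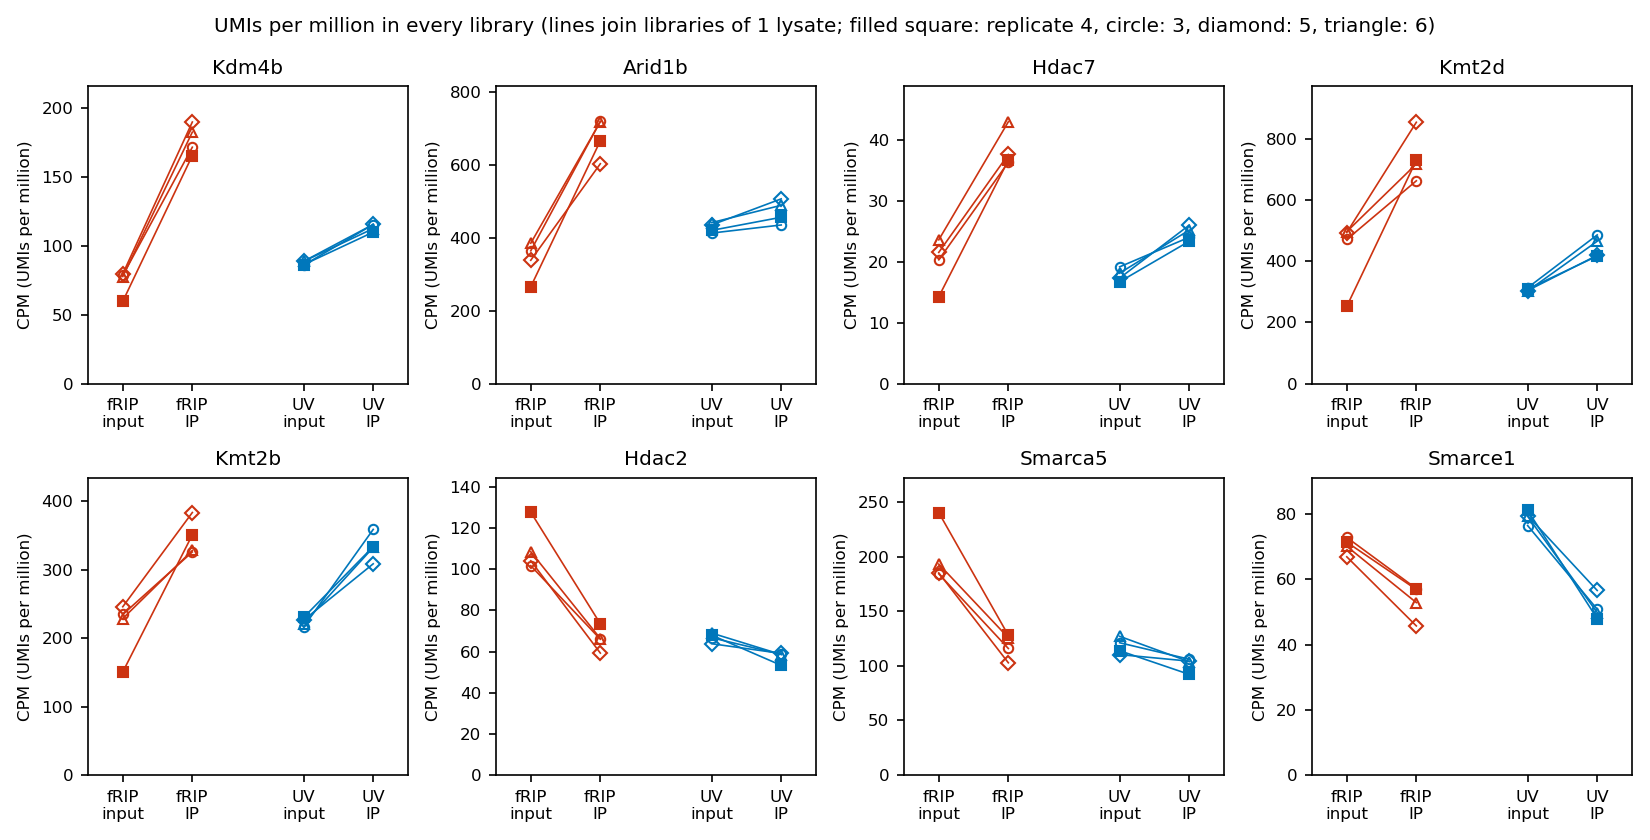
CPM in every library for 8 genes, each panel from 0 on its own linear scale, with input and IP of fRIP in red and of UV-RIP in blue, and a line joining the libraries of 1 lysate. Filled squares mark replicate 4, whose fRIP input was the lowest of the 4 for Kdm4b, Arid1b, Hdac7, Kmt2d and Kmt2b and the highest for Hdac2 and Smarca5.

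Of the 18 Kdm genes, encoding lysine demethylases, 2 were enriched and 0 depleted in fRIP, with 5 above and 7 below input at any fold. For all genes of 100 or more UMIs the shares were 11.5%, 15.4%, 29.2% and 38.4%. Kdm4b, which removes methyl groups from lysine 9 of histone H3, had the largest fRIP enrichment of the genes with 100 or more UMIs. It lies at chr17:56326062-56402870 on the plus strand and overlaps no other gene. Its fRIP levels were 171, 165, 189.6 and 182 CPM in IP and 78.3, 59.5, 79.5 and 77.6 in input. The groups were far apart at 2.41-fold, with a log2 fold change of 1.27 ± 0.080 (adjusted p = 3.79e-11), or 1.21 without replicate 4. UV-RIP gave 115, 109.7, 115 and 112 in IP and 85.8, 86.2, 88.6 and 88.6 in input, also apart, and 0.37 ± 0.044 on the log2 scale (adjusted p = 2.34e-16).

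Of its relatives, Kdm4a was at 0.12 ± 0.082 in fRIP (adjusted p = 0.283), or 0.029 without replicate 4, and Kdm4c was below input with both crosslinkers, at -0.23 ± 0.073 (adjusted p = 0.0121) and -0.51 ± 0.040 (adjusted p = 4.66e-36), the lowest UV-RIP value of the family among genes of 100 or more UMIs. The fRIP value of Kdm4c did not pass without replicate 5, at -0.20 (adjusted p = 0.0611). Kdm4d passed the enrichment threshold in fRIP on few molecules, with 1.52, 1.46, 1.65 and 0.996 CPM in IP and 0.845, 0.422, 1.09 and 0.954 in input, groups that overlapped. Its log2 fold change was 0.78 ± 0.29 (adjusted p = 0.0336), or 0.85 without replicate 5 (adjusted p = 0.0839), the call held in 7 of 13 alternative fits, and the value was 0.53 without replicate 4.

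Kdm6a and Kdm6b, demethylases of lysine 27 of histone H3, lay on opposite sides of input. Kdm6b had 95.2, 84.8, 91.5 and 91.9 CPM in UV-RIP IP and 76.7, 72.5, 61.3 and 69.2 in input, a log2 fold change of 0.38 ± 0.046 (adjusted p = 9.08e-16), and Kdm6a had 143, 136, 154 and 144 and 198, 198, 195 and 204, a log2 fold change of -0.46 ± 0.041 (adjusted p = 2.11e-28). In fRIP they were at 0.46 ± 0.12 (adjusted p = 0.00294) and -0.35 ± 0.077 (adjusted p = 0.000664). The fRIP value of Kdm6b rested on replicate 4, with log2 ratios of 0.14, 1.23, 0.42 and 0.096 in replicates 3 to 6, and was 0.22 without it. Without replicate 6 the value was 0.59 and passed the enrichment threshold. Kdm2b, which brings a Polycomb complex to CpG islands, was above input in fRIP at 0.52 ± 0.082 (adjusted p = 1.22e-05) and at -0.16 ± 0.040 in UV-RIP (adjusted p = 0.000438), close to the median of all genes. Kdm1a (LSD1), which acts on mono- and dimethylated lysine 4, was below input with both crosslinkers, at -0.32 ± 0.073 (adjusted p = 0.000807) and -0.33 ± 0.039 (adjusted p = 1.39e-15), or -0.28 and -0.15 with TMM factors. Kdm5b, a demethylase of lysine 4 and the RNA with the highest mean UMI count of the 86, was also below input in fRIP, at -0.22 ± 0.070 (adjusted p = 0.0122), and in UV-RIP was at the median of all genes, at -0.17 ± 0.037 (adjusted p = 1.33e-05).

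Of the 18 Kmt2, Kmt5 and Setd genes, which encode mostly lysine methyltransferases (Setd3 acts on a histidine of actin), 2 were enriched and 0 depleted in fRIP, with 6 above and 3 below input at any fold. Over all genes of 100 or more UMIs these were 11.5%, 15.4%, 29.2% and 38.4%. Kmt2b (MLL2), at chr7:30568858-30588726 on the minus strand, overlaps no other gene and methylates lysine 4 at bivalent promoters in mESC. It had 326, 351, 384 and 328 CPM in fRIP IP and 235, 151, 246 and 229 in input, a log2 fold change of 0.71 ± 0.095 (adjusted p = 1.43e-06). Replicate 4 had the lowest input, and without it the value was 0.55, under 1.5-fold. UV-RIP gave 359, 334, 309 and 333 in IP and 217, 230.3, 226 and 221 in input, and at 0.57 ± 0.039 (adjusted p = 5.81e-47) Kmt2b had the highest UV-RIP value of the 86. It passed 1.5-fold there without replicate 4, at 0.59.

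Kmt2d (MLL4), which with Kmt2c marks enhancers, had 663, 729.6, 854 and 718 CPM in fRIP IP and 471, 252, 493 and 496 in input. Replicate 4 again had the lowest input, and the log2 fold change of 0.83 ± 0.11 (adjusted p = 1.67e-06) became 0.61 without it. The UV-RIP values were 486, 417, 419 and 465 in IP and 313, 309, 304 and 302 in input, apart, with 0.54 ± 0.038 on the log2 scale (adjusted p = 4.69e-43). Kmt2a (MLL1) was above input with both crosslinkers, at 0.49 ± 0.10 (adjusted p = 0.000299) and 0.38 ± 0.038 (adjusted p = 3.3e-22). Its fRIP log2 ratios were 0.25, 1.06, 0.47 and 0.20 in replicates 3 to 6, and without replicate 4 the fRIP value was 0.31. Without replicate 6 it was 0.59, past 1.5-fold. Kmt2c did not pass the test with either, at 0.066 ± 0.075 (adjusted p = 0.554) and -0.01 ± 0.038 (adjusted p = 0.898), and in fRIP was -0.011 without replicate 4.

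Setd1b, of the main complex that methylates lysine 4, was above input in fRIP at 0.47 ± 0.12 (adjusted p = 0.00184) and in UV-RIP at 0.11 ± 0.047 (adjusted p = 0.0492), and its relative Setd1a was at 0.12 ± 0.10 (adjusted p = 0.422) and 0.023 ± 0.053 (adjusted p = 0.816). The fRIP values of both rested in part on replicate 4, with log2 ratios of 0.25, 1.18, 0.36 and 0.11 for Setd1b and -0.096, 0.69, -0.12 and 0.026 for Setd1a in replicates 3 to 6, and were 0.25 and -0.065 without it. Without replicate 6 Setd1b was at 0.59 in fRIP, past 1.5-fold. Its difference between the crosslinkers, 0.50, then also passed the test. Setdb2, a lysine 9 methyltransferase, and Setd6 were below input with both crosslinkers, Setdb2 at -0.30 ± 0.096 (adjusted p = 0.0138) and -0.43 ± 0.059 (adjusted p = 3.59e-12), and Setd6 at -0.26 ± 0.10 (adjusted p = 0.0456) and -0.44 ± 0.074 (adjusted p = 2.21e-08). In fRIP neither passed without replicate 5, at -0.20 (adjusted p = 0.162) and -0.18 (adjusted p = 0.311). Setd4 took opposite directions and is described with the crosslinkers.

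Chdh was enriched in fRIP on very few molecules. It had 35 UMIs over the 4 IP libraries and 6 over the inputs, a ratio of 4.29 after division by depth with an exact 95% interval of 1.79 to 12.5 that covers counting error only. In UV-RIP the sums were 38 and 46, a ratio of 0.685 (0.434 to 1.08). Chdh overlaps Cacna1d, and DESeq2 gave no adjusted p for it in fRIP.

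The crosslinkers were then compared by an interaction term over all 16 libraries. The fold change was higher in fRIP for 31 RNAs and lower for 6, against 18.6% and 8.07% of all genes tested. Among genes with 100 or more UMIs, 30 of 77 of these RNAs (39%) and 34.5% of all genes were higher, and 6 of 77 (7.79%) and 15.9% were lower. The counts follow the scaling: with TMM factors, which bring the UV-RIP median of all genes to 0.0052, they were 17 and 9, against 13.4% and 12.3% of all genes. Without replicate 4 they were 25 and 6, against 17.7% and 8.4% of all genes. The count of RNAs lower in fRIP was 3, 3 and 2 without replicates 3, 5 and 6, against 5.73%, 6.65% and 6.7%.

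The largest differences among genes of 100 or more UMIs were those of Kdm4b at 0.90 ± 0.086 (adjusted p = 5.12e-08), Arid1b at 0.87 ± 0.090 (adjusted p = 1.29e-07) and Setd4 at 0.79 ± 0.12 (adjusted p = 1.55e-05). Setd4 had 30, 30.4, 31.5 and 31.8 CPM in fRIP IP and 29, 21.2, 22.6 and 23.4 in input, then 22.4, 18.9, 22 and 23.4 in UV-RIP IP and 28.7, 30.5, 28.7 and 28.3 in input. IP lay above every input in fRIP, at 0.37 ± 0.094 (adjusted p = 0.00248), and below every input in UV-RIP, at -0.42 ± 0.063 (adjusted p = 2.54e-10). In all, 6 RNAs were above input in fRIP and below it in UV-RIP at any fold (Arid2, Arid5b, Chd2, Kdm2b, Setd3 and Setd4), and 0 were the other way round, against 2.71% and 0.131% of all genes tested, or 5.46% and 0.284% of those with 100 or more UMIs. With TMM factors Setd4 alone of the 6 was below input in UV-RIP. Without replicate 4 the fRIP values of Arid2, Arid5b and Chd2 moved from 0.21, 0.23 and 0.20 to 0.13, 0.12 and 0.13. Chd2 did not pass in UV-RIP without replicate 4 or without replicate 5 (adjusted p = 0.624 and 0.0642). The interaction of Hdac4 was 0.65 ± 0.084 (adjusted p = 2.18e-06) and that of Kdm2b 0.68 ± 0.090 (adjusted p = 3.12e-06). With the gene length trend removed, that of Hdac4 was 0.17 and did not pass (adjusted p = 0.181). Nor did those of Arid2, Arid5b, Chd2 and Setd3 in that fit.

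Lower in fRIP than in UV-RIP were Smarca5 at -0.55 ± 0.087 (adjusted p = 3.07e-05), Hdac2 at -0.52 ± 0.087 (adjusted p = 6.01e-05), the BAF subunit Smarcd2 at -0.29 ± 0.092 (adjusted p = 0.0185), Ino80e at -0.28 ± 0.092 (adjusted p = 0.0227), Chd4 at -0.26 ± 0.074 (adjusted p = 0.00827) and the lysine 9 demethylase Kdm3a at -0.24 ± 0.077 (adjusted p = 0.019). Of these 6, Smarca5 and Hdac2 passed in each fit that left out 1 replicate. Ino80e and Kdm3a did not pass without replicate 3, 5 or 6, Smarcd2 without replicate 4 (-0.21, adjusted p = 0.0575), 5 or 6, and Chd4 without replicate 3 (adjusted p = 0.125) or 6 (adjusted p = 0.0958), and these 4 did not pass with no replicate block either. The interaction did not pass the test for Kmt2b, at 0.14 ± 0.11 (adjusted p = 0.444), Kmt2d, at 0.29 ± 0.14 (adjusted p = 0.128), or Kmt2a, at 0.11 ± 0.13 (adjusted p = 0.6). Without replicate 4 these 3 were -0.042, 0.033 and -0.15, and that of Kmt2d passed without replicate 3 (0.44, adjusted p = 0.0471), without replicate 6 (0.43, adjusted p = 0.0304) and with no filter on low counts (0.29, adjusted p = 0.00184). At any fold, 15 RNAs were above input with both crosslinkers and 20 below with both, against 5.24% and 15.3% of all genes tested. At 100 or more UMIs these were 15 and 18 of 77 (19.5% and 23.4%), against 10.3% and 30.5% of all genes. Across the 77 genes with 100 or more UMIs the log2 fold changes of the crosslinkers had Pearson's r = 0.735 and Spearman's rho = 0.708, against 0.686 and 0.656 over 9792 protein-coding genes. This describes genes within 1 set of libraries, and genes are not independent replicates.

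**Figure D3:**
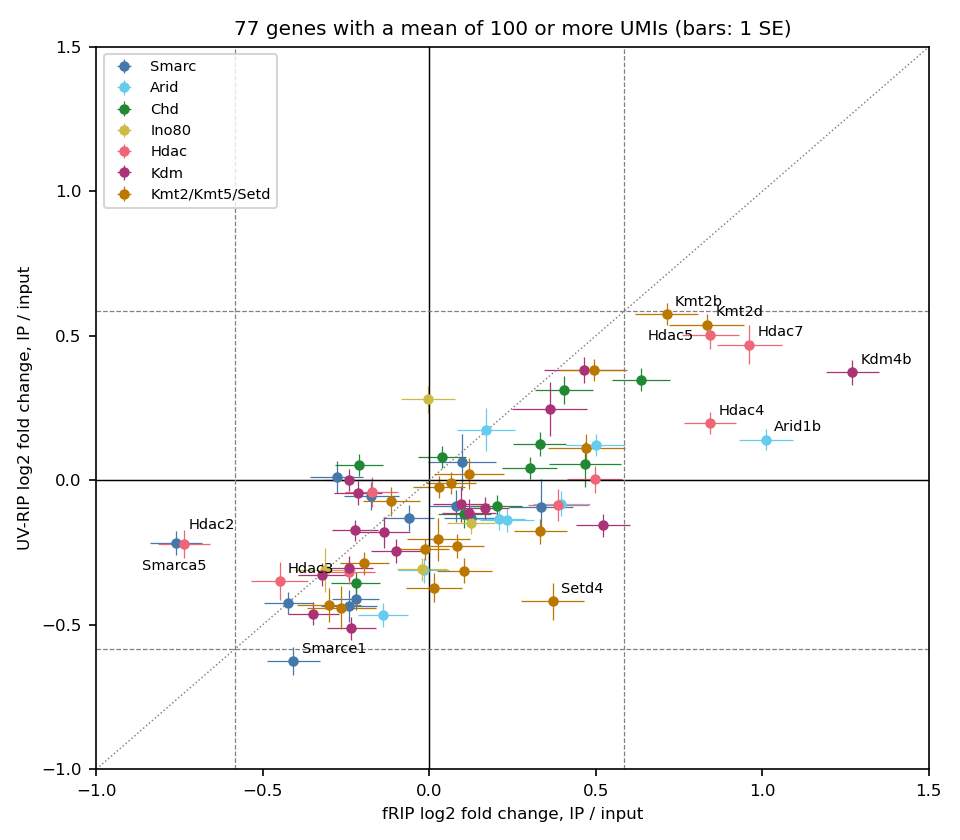
Log2 fold change of IP over input in fRIP (x axis) and UV-RIP (y axis) for the 77 chromatin genes of at least 100 UMIs on average, colored by family, with bars of 1 SE, dashed lines at 1.5-fold and a dotted line where both are equal. Kdm4b and Arid1b lie farthest to the right of the dotted line, Smarca5 and Hdac2 to its left, and Kmt2b closest to it among the enriched genes.

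Paralogues with like functions were compared within each replicate, by the difference of their log2 IP-to-input ratios, for 15 pairs. With 4 replicates the smallest p that an exact permutation test can give is 0.125, so no pair can pass 0.05, and values are given as mean and SD. The order was the same in all 4 replicates for 12 pairs in fRIP and 11 in UV-RIP. Kdm4b exceeded Kdm4a by 1.15 ± 0.065 in fRIP and 0.49 ± 0.075 in UV-RIP. Kmt2d exceeded Kmt2c by 0.77 ± 0.34 and 0.55 ± 0.022, and Kdm6b exceeded Kdm6a by 0.82 ± 0.46 and 0.84 ± 0.082. The gene with the higher GC content of its transcript had the higher ratio in all 4 replicates in 10 pairs in fRIP and 11 in UV-RIP, and the gene with the lower GC content in 2 and 0. The 2 exceptions were Arid1b over Arid1a, by 0.51 ± 0.11, and Smarca2 over Smarca4, by 0.21 ± 0.081, both with the longer gene body in the gene of the higher ratio. For Chd7, Setd1b, Kdm2b and Kdm4b, higher in fRIP in the GC order, the body was also the longer of the pair. For Hdac1, Chd2, Chd3, Kmt2b, Kmt2d and Kdm6b it was the shorter, for Chd2 by the deposited length of Chd1. Hdac1 exceeded Hdac2 in fRIP by 0.49 ± 0.13, but in UV-RIP was higher in 1 replicate of 4.

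**Figure D4:**
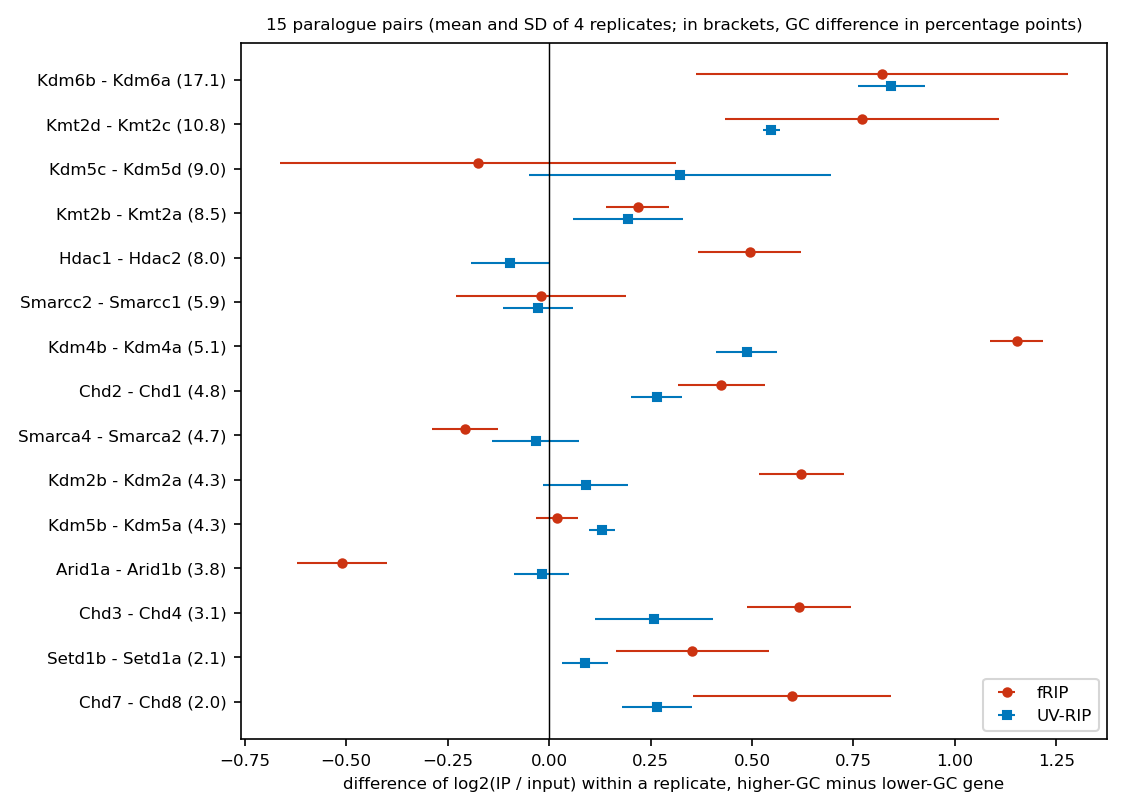
Difference of the log2 IP-to-input ratio within a replicate (x axis), the gene of higher transcript GC content minus the gene of lower, for 15 paralogue pairs ordered by their GC difference, as mean and SD of 4 replicates in fRIP (red circles) and UV-RIP (blue squares). Most pairs lie to the right of 0 with both crosslinkers, while Arid1a/Arid1b and Smarca4/Smarca2 lie to the left in fRIP.

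Over the 77 genes with 100 or more UMIs, the GC content of the longest protein-coding transcript moved with the fold change. Spearman's rho was 0.468 in fRIP and 0.578 in UV-RIP, against 0.324 and 0.571 over 9792 protein-coding genes. These are correlations across genes that share libraries and are given as a description. The GC content is that of spliced RNA, while the counts include introns, whose GC content was not measured. When the genes were divided at the GC quartiles of all protein-coding genes into 4 bins, the 16 genes of the lowest bin (under 45.2%) held both depleted and 0 enriched RNAs, with a fRIP median of -0.18. The 22 of the highest bin (54.6% and over) held 5 enriched and 0 depleted RNAs, with a median of 0.38. Protein-coding genes showed the same order, from 39 enriched and 623 depleted of 2448 in the lowest bin to 511 and 241 in the highest. With the GC trend of all genes removed, an alternative chosen after the data were seen, 9 RNAs were enriched and 1 depleted in fRIP, against 8.55% and 9.51% of all genes, and Hdac2 and Smarca5 each had -0.53, short of the threshold, while Ino80b passed it. The enriched calls of Kmt2b (0.56) and Arid5a (0.54) were also lost.

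Gene body length moved with the difference between the crosslinkers. Spearman's rho of the interaction with length was 0.486 over the 77 genes and 0.644 over protein-coding genes. Of the 34 genes in the longest of 4 like bins of length (over 67926 bases) 22 were higher in fRIP and 0 lower, against 0 and 2 of the 5 in the shortest. Over protein-coding genes 1791 were higher and 48 lower of the 2448 in the longest bin, and 127 and 983 of the 2448 in the shortest. In the shortest bin of protein-coding genes 1000 of 2448 were depleted in fRIP, and in the longest 19. The part of length and GC content in these results was not tested beyond the fits in which their trends were removed. With the length trend removed, 9 RNAs were enriched and 6 depleted in fRIP, against 7.6% and 7.48% of all genes, so that the depleted share (6.98%) was near the background. The enriched calls of Hdac4 (0.44), Chd7 (0.28) and Kdm4d (adjusted p = 0.0539) were then lost, Hdac11 (0.60) was added, and Chd1 (-0.73), Kdm6a (-0.63), Smarca1 (-0.62) and Smarcad1 (-0.61) joined the depleted RNAs. For Chd1 the fit used the deposited body of 1689932 bases, far longer than in GENCODE vM21. Its depleted call, and its lower interaction in that fit (-0.455), therefore depend on that length. With the length trend removed, 5 RNAs were higher and 16 lower in fRIP than in UV-RIP, or 5.81% and 18.6% against 6.35% and 11% of all genes.

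**Figure D5:**
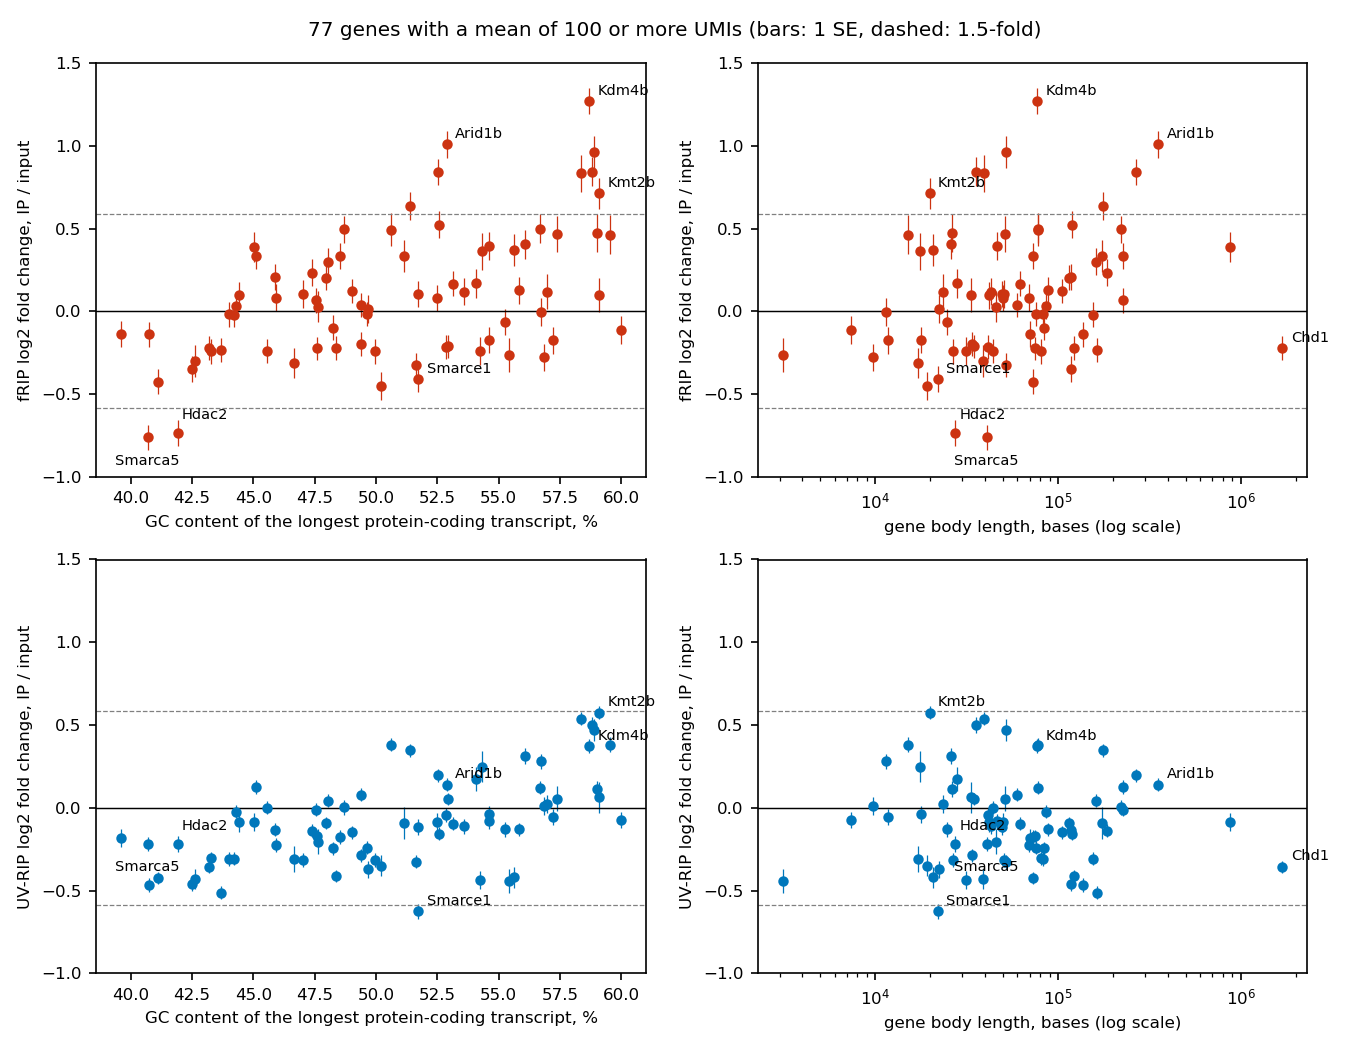
Log2 fold change of IP over input (y axis) in fRIP (top, red) and UV-RIP (bottom, blue) against the GC content of the longest protein-coding transcript in percent (left) and the gene body length in bases on a log scale (right), for the 77 chromatin genes of at least 100 UMIs on average, with bars of 1 SE and dashed lines at 1.5-fold. Fold changes rise with GC content with both crosslinkers, and in fRIP Smarca5 and Hdac2 lie at the lower left and Kdm4b at the upper right.

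Levels in input were also taken per kb of gene body. In fRIP input Chd4 had the highest, at 17.9 CPM per kb, then Kdm5b at 12.7, while Kdm4b was at 0.96, Arid1b at 0.957 and Hdac7 at 0.385. These levels are not the depth behind a value, as Chd4 and Arid1b had means of 8050.8 and 7716.9 UMIs per library. The fold change did not move with the level, with a Spearman's rho against the mean UMI count of 0.056 in fRIP and 0.046 in UV-RIP over the 77 genes. The Y-linked demethylase Kdm5d was a low RNA, at 1.17, 1.2, 0.579 and 0.807 CPM in fRIP input, and its log2 fold change was -0.056 ± 0.30 in fRIP (adjusted p = 0.916).

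Other genes of the same pathways were counted for comparison in 7 lists, 121 genes in all. Of these 6 were enriched and 10 depleted in fRIP, against 8.8% and 10.7% of all genes tested (4.96% and 8.26% of the lists), and 0 were enriched and 5 depleted (4.13%) in UV-RIP, against 0.68% and 5.53%, with median log2 fold changes of -0.043 and -0.17. Polycomb genes (28 tested) held 2 enriched and 3 depleted RNAs in fRIP, ranging among genes of 100 or more UMIs from Cbx7, a reader of methylated lysine 27, at 0.87 ± 0.078 (adjusted p = 4.42e-09) to Pcgf6 at -0.64 ± 0.085 (adjusted p = 1.21e-06), and one of the depleted RNAs, Cbx8, rested on a mean of 10.2 UMIs. The 11 histone acetyltransferases held 0 of either, from Kat6b at 0.54 ± 0.079 to Hat1 at -0.38 ± 0.078. The 15 other histone methyltransferases held 1 and 1, Smyd3 at 0.74 ± 0.078 (adjusted p = 4.57e-08) and Prmt5 at -0.60 ± 0.086 (adjusted p = 3.92e-06). The 7 sirtuins held 0 of either, from Sirt3 at 0.34 ± 0.082 to Sirt1 at -0.48 ± 0.084. Among 13 other remodeler ATPases 0 were enriched and 1 depleted, Hells, which helps DNA methylation spread, at -0.81 ± 0.078 (adjusted p = 1.41e-08), with Ercc6 highest at 0.23 ± 0.081. The 37 partner subunits of BAF, NuRD, ISWI and INO80 held 3 and 4, from the BAF subunit Dpf3 at 0.98 ± 0.12 (adjusted p = 2.42e-07) to the INO80 partner Uchl5 at -0.82 ± 0.086 (adjusted p = 4.38e-08). The 10 partners of the lysine 4 methyltransferases held 0 and 1, with Paxip1 at 0.36 ± 0.075 and Dpy30 at -0.66 ± 0.080 (adjusted p = 3.5e-07). Dpy30 and Uchl5 were also depleted in UV-RIP, at -0.95 ± 0.049 (adjusted p = 4.82e-82) and -0.77 ± 0.056 (adjusted p = 1.43e-41).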

How the data were processed

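RNA from 16 libraries was analysed (4 IP and 4 input libraries per crosslinker). The authors mapped reads with STAR to mm10 and kept those with a unique position. They deposited raw UMI counts for whole genes of GENCODE vM16, so that intronic reads are part of each count. Versions and the strand setting are not given in the sources used here. The deposited table also holds the length of each gene body, another kind of value, used as a gene property. Every count column could be assigned to its library by name.

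The counts were tested in R 4.3.3 with edgeR 4.0.16 (quasi-likelihood test), IP against input within each crosslinker, taking the replicate number as a blocking factor and total UMIs as the library size, for the 22936 genes that reached 3 UMIs in some library. Adjusted p is by Benjamini-Hochberg over all genes tested. Enrichment required both a fold over 1.5 and an adjusted p under 0.05. Depletion was its mirror. The difference between crosslinkers was an interaction over 16 libraries with the plate as a block, at an adjusted p below 0.05. SE is the log2 fold change divided by the square root of the F statistic. Scripts were tested on simulated data. DESeq2 1.42.0, other library sizes and filters, fits without the block or a replicate, and fits with the length or GC trend removed were alternatives, the GC trend being added after the data were seen.

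IP and input of 1 number come from 1 lysate by the study's methods, and their deviations from the group means had correlations of 0.114 to 0.606 in fRIP and 0.0295 to 0.447 in UV-RIP over 10208 genes. No pair of replicates agreed within sampling noise (lowest chi-square per degree of freedom 1.52). The labels call the replicates separate samples, and p-values measure the spread between them.

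The genes, related lists and paralogue pairs were chosen with earlier results of these data known. The digit in the rule was required after Arid only. Named were, in each family and among genes averaging at least 100 UMIs, the 2 highest and 2 lowest in fRIP and the highest and lowest in UV-RIP, all genes called in UV-RIP, the 4 largest and 4 smallest called interactions, and the paralogue pairs. The other genes that passed the fRIP threshold, and Arid2, Arid5b, Hdac8, Hdac9, Hdac11, Ino80b, Kdm3a, Setd3 and Smarca1, were named after their values were seen. Coordinates and transcripts are from GENCODE vM21 on GRCm38, and gene coordinates are given only among the 76 genes that matched by identifier and version. The other 10 matched by identifier alone and have no gene coordinates here. Their transcript GC content, and the stretches shown for Arid1b and Kmt2d, come from a vM21 entry of another version.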

Additional observations from a re-analysis of the deposited data

Results flagged for a closer look

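Among 104 groups of 4 log2 IP-to-input ratios, those of the named genes in each crosslinker, 12 held a ratio that lay apart from the other three by Dixon's criterion (0.829 for 4 samples), where chance gives about 1 group in 20. In fRIP, replicate 4 was the high ratio for Arid1a (0.94), Chd2 (0.42), Chd7 (1.03), Hdac5 (1.17), Hdac7 (1.36), Kdm2a (0.064), Kdm2b (0.84) and Kmt2c (0.30), and the low ratio for Smarcd2 (-0.41). The fRIP ratio of Setd4 in replicate 3 (0.049) lay below the others, at 0.44 to 0.52. In UV-RIP, replicate 4 was high for Arid3a (0.34) and low for Kdm5b (-0.27). So 9 of the 12 came from 1 lysate, fRIP replicate 4, and they include both enriched and unenriched genes. The cause was not tested.

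The fold change differed between the crosslinkers by the interaction test for Chdh (2.59, on few molecules), Kdm4b (0.90), Arid1b (0.87), Setd4 (0.79), Smarca5 (-0.55), Hdac2 (-0.52), Smarcd2 (-0.29) and Ino80e (-0.28), each as fRIP minus UV-RIP on the log2 scale. These are the 4 largest and the 4 smallest of the interactions that passed the test.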

How the results depend on the processing

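Counts below are given in the order enriched and depleted in fRIP, enriched and depleted in UV-RIP, and higher and lower in fRIP than in UV-RIP, and were 11, 2, 0, 1, 31 and 6 as reported. Of all genes tested, 8.8, 10.7, 0.68, 5.53, 18.6 and 8.07% were called in that order. TMM factors gave 12, 2, 4, 0, 17 and 9, library sizes without Gm26917 and Gm42418 gave 11, 2, 4, 0, 16 and 10, and DESeq2 with median-of-ratios factors gave 9, 2, 4, 0, 12 and 10, where the UV-RIP enriched RNAs were Hdac5, Hdac7, Kmt2b and Kmt2d each time. All-gene shares were 9.94, 9.37, 2.2, 1.85, 13.4 and 12.3% with TMM. They were 9.19, 9.95, 1.83, 2.2, 12.5 and 12.9% without Gm26917 and Gm42418. Median-of-ratios factors gave 7.68, 8.11, 1.26, 1.02, 9.22 and 10.3% of all genes. DESeq2 with total UMIs gave 9, 2, 0, 1, 28 and 6, against 7.12, 8.97, 0.34, 3.85, 14.8 and 5.93%. The fit with no replicate block gave 10, 2, 0, 1, 20 and 2, so without the pairing fewer interactions passed. It called 8.56, 10.7, 0.685, 5.58, 14.3 and 5.29% of all genes. Fewer samples were left when 1 replicate was dropped, and then the counts ranged from 7 to 14, 2 to 3, 0 to 1, 0 to 2, 25 to 29 and 2 to 6. All-gene shares then ranged from 7.8 to 8.89, 9.41 to 11.3, 0.602 to 0.807, 4.86 to 5.78, 13.7 to 17.7 and 5.73 to 8.4%. Without replicate 4, 7 RNAs were enriched in fRIP, 1 was enriched in UV-RIP (Kmt2b) and 0 were depleted there. Without replicate 3 the depleted RNAs in UV-RIP were 2 and the RNAs lower in fRIP than in UV-RIP 3, without replicate 5 the depleted RNAs in fRIP were 3, the enriched RNAs in UV-RIP 1 (Kmt2b) and the RNAs lower in fRIP 3, and without replicate 6 the last were 2. Dropping the fold threshold for enrichment gave 31, 24, 16 and 42, where the UV-RIP pair became 36 and 20 with TMM, 30 and 22 without Gm26917 and Gm42418, 25 and 17 with median-of-ratios factors, 28 and 22 without the length trend and 30 and 15 without the GC trend, and requiring 1.5-fold for the interaction gave 6 and 0. Removing the length trend gave 9, 6, 4, 0, 5 and 16, and removing the GC trend gave 9, 1, 0, 0, 12 and 8. Of all genes, 7.6, 7.48, 1.89, 1.85, 6.35 and 11% were called without the length trend. The share was 8.55, 9.51, 1.21, 1.56, 11.6 and 12.9% without the GC trend. Other filters on low counts and the stricter reading of the digit rule changed no count by over 1.5 times. The interaction of Kdm6b was 0.080 and not past the test as reported, and reversed to -0.21 without replicate 4 (adjusted p = 0.0192), with a range of -0.21 to 0.22 over the fits that drop 1 replicate. The causes were not tested beyond what each fit removes.

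Depth limits the 9 genes with means under 100 UMIs per library, Arid3c, Arid5a, Chdh, Hdac10, Hdac11, Ino80b, Kdm4d, Kdm5d and Smarca1. The IP was compared with input only, counts include introns, and fRIP values carry a larger spread than UV-RIP values (common dispersion 0.009 against 0.00124). The fRIP replicate 4 added to that spread. Without it the adjusted p of edgeR's test in fRIP fell from 1.04e-09 to 1.73e-84 for Arid1b and from 1.8e-06 to 6.13e-23 for Chd7. Without replicate 5 it rose, to 1.84e-06 and 0.000168.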
